A study of Mus musculus with 20 samples.

Results

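The immediate early genes described here are *Egr1*, *Fos*, *Fosb*, *Jun*, *Junb*, *Atf3*, *Ier2*, *Ier3*, *Dusp1* and *Myc*, measured in mouse liver after repeated oral doses of benzo(a)pyrene (BaP), a polycyclic aromatic hydrocarbon formed in combustion. All probes whose transcript accession maps to 1 of these 10 symbols were taken, which gave 14 probes. The rule itself uses no measured value, but the genes were listed with earlier results of these data known. These are 10 of 12986 genes and 14 of 27345 probes that were present in the liver samples. *Junb* and *Ier2* each had 2 probes and *Myc* had 3, numbered from the brightest to the dimmest, and the brightest probe stands for its gene where no probe number is given.

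The liver samples came from 20 male Muta™Mouse animals of strain 40.6, 25 weeks of age, a line that carries a bacterial *lacZ* transgene as a target for mutation. Groups of 5 mice received olive oil alone (control, replicates 1 to 5) or BaP in olive oil at 25 (replicates 6 to 10), 50 (replicates 11 to 15) or 75 mg/kg/day (replicates 16 to 20) by gavage for 28 days, and tissue was taken 3 days after the last dose. Each mouse had 1 array, on which its RNA (Cyanine 5) competed with reference RNA (Cyanine 3) pooled from 11 mouse cell lines. Every value below is a log2 ratio of liver over that reference unless it is called a difference, so a negative value means a lower signal in liver than in the cell lines. As all arrays have the same dye orientation, liver and dye cannot be told apart in a ratio but cancel in a difference between doses.

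Immediate early genes are transcribed within minutes of a signal at the cell surface or of stress, without new protein synthesis, and their mRNAs are short lived. Kinase cascades act on factors already bound at their promoters, above all serum response factor with its ETS partners and the cyclic AMP response element binding protein. In liver they are known for the first wave of transcription after partial hepatectomy or injury, and their products include transcription factors of the AP-1, EGR and MYC families together with proteins that turn the signal off.

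Short promoter sequences that match known elements are shown first, since the comparisons below concern genes that are often induced together. RefSeq promoters (GRCm38.p6, 250 bases before to 50 bases after the start of transcription) were at hand for 7 of the 10 genes, namely *Fos*, *Fosb*, *Jun*, *Junb*, *Atf3*, *Ier3* and *Dusp1*. Windows upstream of the start, for genes whose entry has the same start as the gene's annotated span, are given 5′ to 3′ on the strand of the gene, with the letters of the motif in capitals.

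Fos, cyclic AMP response element core, chr12:85473816-85473837, + strand: ccgcccagTGACGTaggaagtc
Fos, TATA box, chr12:85473849-85473870, + strand: agcgcttcTATAAAggcgccag
Dusp1, cyclic AMP response element, chr17:26508600-26508623, - strand: agggcgggTGACGTCAccgcccgg
Dusp1, separate core, chr17:26508650-26508671, - strand: taggccgaTGACGTctttgctt

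The core TGACGT of that element, read on both strands, was found in the promoters of *Fos*, *Atf3* and *Dusp1*, and in 7.51% of all 32851 promoter entries. The full element TGACGTCA, which contains the core, was found in that of *Dusp1* alone among the 7 and in 1.79% of all entries. The EGR site GCGNGGGCG was found in that of *Fosb* and in 5.55% of all entries. The *Fosb* entry counts from a start inside the annotated span of the gene, so that this match, upstream of the start used, lies within the span. The sequence TATAAA was found in those of *Fos* and *Junb*, in the latter at the annotated start itself, and in 13.6% of all entries. The AP-1 site TGANTCA (7.81% of all entries), the CArG box bound by serum response factor (1.63%) and the dioxin response element TNGCGTG, to which the aryl hydrocarbon receptor binds (5.07%), were found in none of the 7 windows. These are matches of letters within 300 bases and nothing more.

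In the liver channel between 51.9 and 67.5% of the spots of an array stood well above background. The highest of these was control replicate 4, against 51.9 to 54.3% in the other controls, so the members whose exposed arrays did not overlap the controls are also given without it. All 6 hepatocyte markers with a probe were well above background on all 20 arrays and none of 6 lung epithelium markers was, where a label names lungs beside others that name liver. Of the lung markers *Sftpd* was well above background on 19 arrays, *Sftpa1* on 16, *Scgb1a1* on 5, *Ager* on 1 and 2 on no array. All 14 member probes passed the presence limit, and 12 of them were well above background on every array. The exceptions were the *Fos* probe, in 2 of 5 control arrays and all 15 exposed arrays, and probe 2 of *Ier2*, in 2, 5, 3 and 4 of 5 arrays from control to 75 mg/kg/day. Dose and position on the slide nearly coincide (all arrays of 25 mg/kg/day had position 2 and all of 75 mg/kg/day had position 4), so their effects cannot be told apart.

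*Egr1*, *Junb* and *Fos* were the members whose arrays at 75 mg/kg/day all lay above all controls, with folds of 2.88, 1.78 and 1.34, and none of them passed the threshold. A transcript was called when limma gave an adjusted p under 0.05, over all 27345 probes, with a fold change over 1.5. On that rule 0 of 14 member probes were called at 25, 50 or 75 mg/kg/day, where 0%, 0% and 0.132% of all probes were called higher and 0%, 0% and 0.00366% lower. At 75 mg/kg/day 3 of 14 probes were higher at an unadjusted p under 0.05 by limma and 0 were lower, against 6.52% and 4.69% of all probes. Of the same probes 4 were higher and 0 lower at 50 mg/kg/day, against 3.75% and 2.94%. These were *Egr1*, *Junb* probe 1 and probes 1 and 2 of *Myc*, so *Myc* is counted more than once. At 25 mg/kg/day 1 was higher and 1 lower, against 4.18% and 3.62%. The median difference of the 14 probes from control was -0.04 at 25, 0.23 at 50 and 0.21 at 75 mg/kg/day on the log2 scale, where the median of all probes was 0.00 at each dose. The slope with dose was called for 0 of 14 probes by limma, and was positive at an unadjusted p under 0.05 for 3 and negative for 0, against 5.07% and 3.51%. The 3 dose comparisons share the control arrays.

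**Figure D1:**
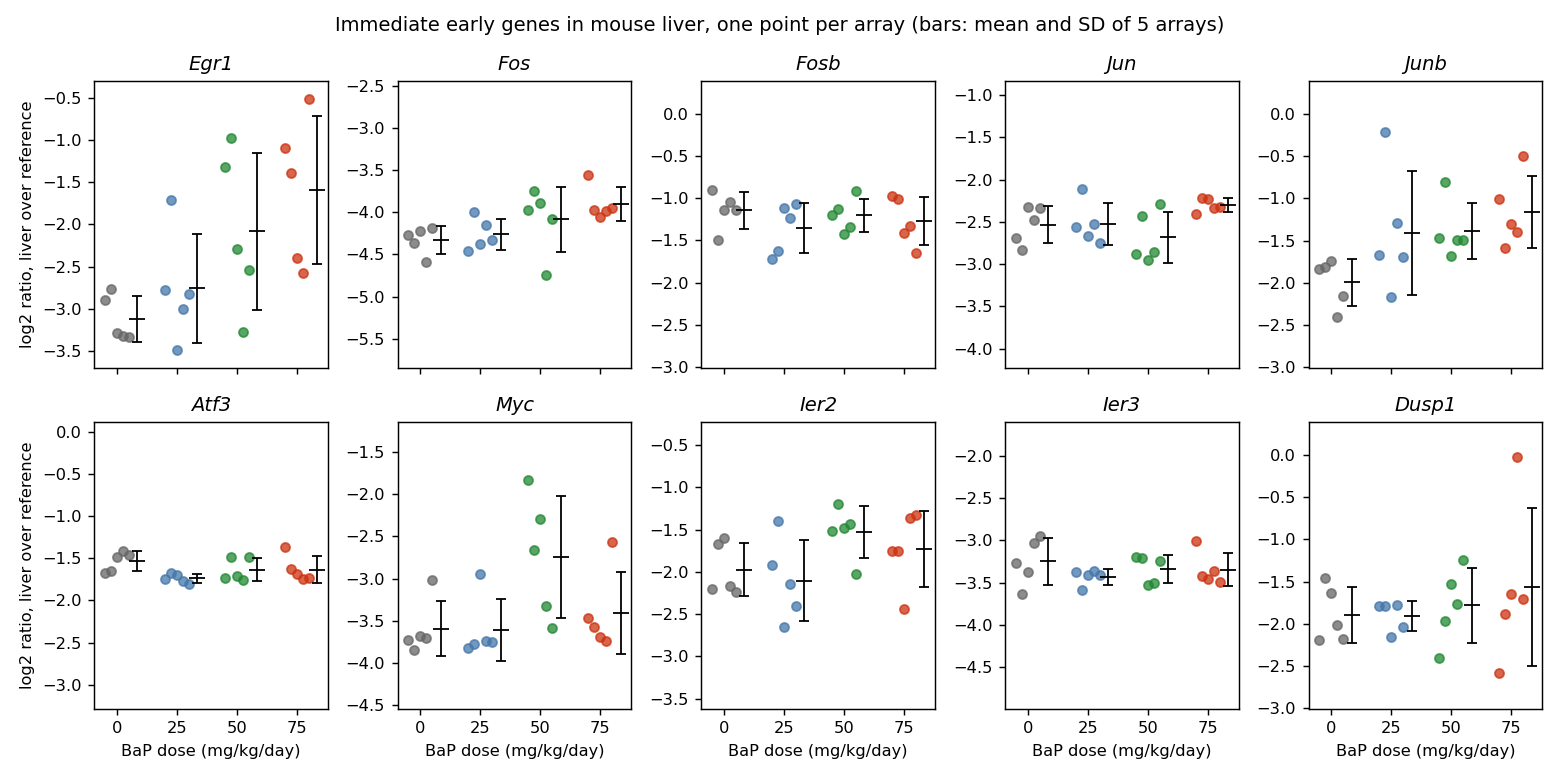
Log2 ratio of liver over reference (vertical axis) for each of the 10 genes by BaP dose in mg/kg/day (horizontal axis), with 1 point per array and the mean and SD of the 5 arrays beside each group; every panel spans the same range of log2 units. The *Egr1* means go from -3.12 in control to -1.59 at 75 mg/kg/day, with a wider spread in each exposed group than in control. *Atf3* and *Ier3* stay within narrow bands.

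*Egr1* encodes a zinc finger transcription factor of the EGR family and lies on chromosome 18 (chr18:34861207-34864956, GRCm38.p6). The 5 control arrays had log2 ratios of -2.90, -2.76, -3.29, -3.33 and -3.33. At 25 mg/kg/day they were -2.77, -1.71, -3.48, -3.00 and -2.82, and the group overlapped the controls, with 1 array above and 1 below all of them. The middle dose gave -1.32, -0.98, -2.29, -3.27 and -2.54, so that 4 arrays lay above every control and 1 among them. The highest dose gave -1.10, -1.39, -2.40, -2.57 and -0.52, all above the highest control. The means were -3.12 ± 0.27, -2.76 ± 0.65, -2.08 ± 0.93 and -1.59 ± 0.87 (SD, n = 5) from control to the highest dose, so the spread between animals was wider in each exposed group than in the controls.

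The difference of *Egr1* from control was 0.36 (SE 0.41) at 25, 1.04 (SE 0.41) at 50 and 1.53 (SE 0.41) at 75 mg/kg/day on the log2 scale. The 95% interval at 75 mg/kg/day ran from 0.66 to 2.39, with adjusted p = 0.171 from limma (0.00143 before adjustment). Exact permutation tests of single member probes (42 in all, two-sided) can give no p below 0.00794, and that was the value for *Egr1* at 75 mg/kg/day; it was 0.0317 at 50 and 0.333 at 25 mg/kg/day. Where groups do not overlap, the exact test always gives its smallest p, so it adds nothing to the lack of overlap. *Egr1* ranked 228 of 27345 probes by the p of limma at 75 mg/kg/day. Fitted against dose as a number, *Egr1* had a slope of 0.53 (SE 0.13) log2 units per 25 mg/kg/day with adjusted p = 0.109 from limma, where 0.154% of all probes had a rising slope past an adjusted p of 0.05 and 0.00366% a falling one. The steps between neighbouring doses did not pass the threshold, with differences of 0.68 (adjusted p = 0.708) from 25 to 50 and 0.49 (adjusted p = 0.855) from 50 to 75 mg/kg/day from limma.

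*Egr1* was the member whose call depended on the slide. With slide as a fixed block its slope was 0.53 with adjusted p = 0.0463, and with slide as a random block 0.53 with adjusted p = 0.0317, both from limma and past the threshold. On slides 1 to 3 alone, a choice made after seeing the data, its difference at 75 mg/kg/day was 1.56 with adjusted p = 0.0391 from limma. Without control replicate 4 the difference at 75 mg/kg/day was 1.48 with adjusted p = 0.289 from limma.

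The AP-1 members are leucine zipper proteins that bind DNA as pairs, with a partner of the Jun family in each pair. *Fos* (chr12:85473890-85477274) encodes the classic inducible partner. Its log2 ratios were -4.27, -4.37, -4.23, -4.59 and -4.19 in control and -3.56, -3.98, -4.05, -3.99 and -3.95 at 75 mg/kg/day, which do not overlap. At 50 mg/kg/day 4 arrays lay above every control and the fifth, replicate 14 at -4.74, below all of them. At 25 mg/kg/day the range was -4.46 to -4.00, overlapping the controls. The difference was 0.42 (SE 0.15) at 75 mg/kg/day with p = 0.0115 and adjusted p = 0.314 from limma, and the exact permutation test gave the smallest p it allows.

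*Fos* was close to the detection limit, and the size of its difference from control depended on the processing. The raw liver signal, averaged over the 10 *Fos* spots and before normalization, was 113 to 130 in the controls and 137 to 221 at 75 mg/kg/day, against presence limits of 95.7 to 113 and 92.8 to 118 on the same arrays. With the processed intensities of the scanner software the difference at 75 mg/kg/day was 1.55 with adjusted p = 0.00934 from limma, past the threshold. Those intensities are background subtracted, and their ratios were centred by array median in place of loess, so background and normalization changed together. With the log2 ratios deposited by the authors the difference at that dose was 0.24 with adjusted p = 0.565 from limma. It was 0.36 with adjusted p = 0.508 from limma without control replicate 4. The direction was the same in all of these, and the fold was not settled.

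*Junb* encodes a Jun family partner that is often induced in parallel with *Fos* (chr8:84976909-84978748). Probe 1 had log2 ratios of -1.83, -1.82, -1.75, -2.40 and -2.15 in control. The arrays of 50 mg/kg/day had -1.47, -0.81, -1.68, -1.49 and -1.49, and at 75 mg/kg/day -1.0, -1.59, -1.31, -1.40 and -0.50, so both groups lay wholly above the controls. At 25 mg/kg/day 4 arrays lay above every control, of which replicate 7 stood highest at -0.22. All arrays of a group were above all controls for 1 of 14 member probes at 50 and 3 of 14 at 75 mg/kg/day, against 0.516% and 0.936% of all probes, and for 0 of 14 at 25 mg/kg/day, against 0.56%.

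The differences of *Junb* probe 1 from control were 0.58, 0.60 and 0.83 (SE 0.27 each) at 25, 50 and 75 mg/kg/day, with unadjusted p = 0.0465, 0.0403 and 0.00657 and adjusted p = 0.64, 0.727 and 0.271 from limma. Without control replicate 4, the lowest of the controls, they were 0.48, 0.50 and 0.73 with adjusted p = 0.824, 0.998 and 0.455 from limma. With all controls but without replicate 7 of 25 mg/kg/day, the difference of probe 1 at that dose was 0.28. Probe 2 gave smaller differences of 0.42, 0.22 and 0.55 (SE 0.31 each), with overlap at every dose and unadjusted p of 0.183, 0.486 and 0.0869 from limma. Among its controls, replicate 3 had a log2 ratio of 0.00 and the other 4 lay between -1.69 and -1.09; without it the difference at 75 mg/kg/day was 0.82 with adjusted p = 0.215 from limma. The 2 probes thus differed in size and had the same sign at each dose.

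*Jun* and *Fosb* differed less from control. *Jun* (chr4:95049036-95052222), the founding member of its family, had means of -2.53 ± 0.22, -2.52 ± 0.25, -2.68 ± 0.30 and -2.30 ± 0.08 (SD, n = 5) from control to 75 mg/kg/day, and all groups overlapped the controls. Its difference at 75 mg/kg/day was 0.23, with a 95% interval from -0.06 to 0.52 and adjusted p = 0.556 from limma. *Fosb* (chr7:19302696-19310118), a relative of *Fos*, had differences of -0.21, -0.06 and -0.13 from control, with adjusted p of 0.748 or more from limma, and its interval at 75 mg/kg/day ran from -0.45 to 0.19. A 2-fold change, at 1 log2 unit, lies outside both of these intervals.

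**Figure D2:**
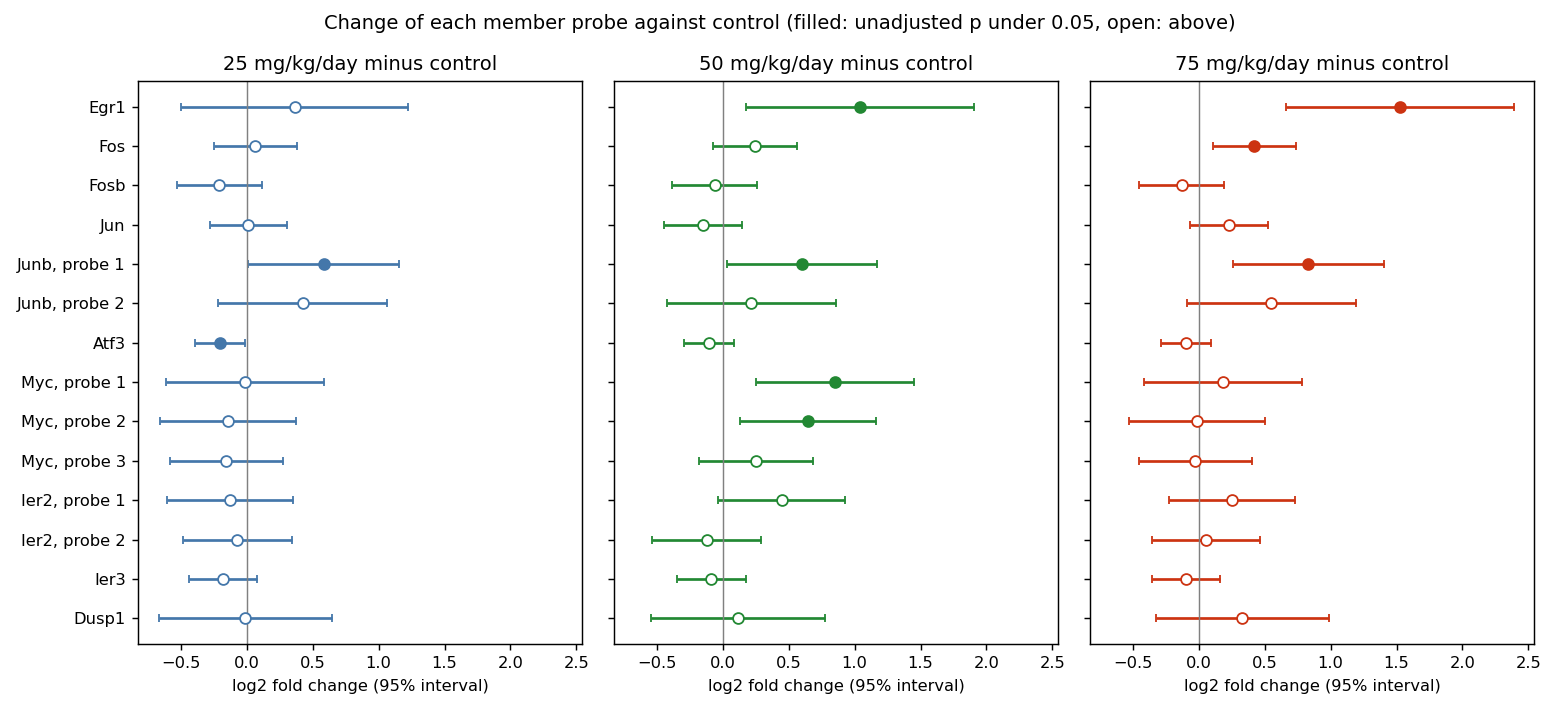
Difference from control on the log2 scale (horizontal axis) with its 95% interval from limma for each of the 14 member probes at the 3 doses; filled points have an unadjusted p under 0.05. The interval of *Egr1* at 75 mg/kg/day runs from 0.66 to 2.39, and those of *Myc* probes 1 and 2 lie wholly above 0 at 50 mg/kg/day and include 0 at the other doses.

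*Atf3* (chr1:191170296-191183333) encodes a stress-induced repressor of the ATF/CREB family. Its control arrays had log2 ratios of -1.67, -1.65, -1.48, -1.41 and -1.46, and the arrays of 25 mg/kg/day had -1.75, -1.67, -1.70, -1.77 and -1.80, all below the controls. The highest of these and the lowest control were equal to the digits printed. The difference was -0.20 (SE 0.09) with adjusted p = 0.637 from limma (0.0367 before adjustment). Of the member probes 1 of 14 lay wholly below the controls at this dose, against 0.655% of all probes. Without control replicate 4, the highest of the controls, the difference was -0.17 with adjusted p = 0.816 from limma. With median centring in place of loess, under which the median difference of all probes was 0.11 at this dose, the *Atf3* difference was 0.0027. That is above 0 but below the median. At 50 and 75 mg/kg/day the difference under loess was -0.10 at each, and the groups overlapped. Median centring gave 0.08 at 75 mg/kg/day, where the median of all probes under it was 0.10.

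*Myc* (chr15:61985341-61990361) encodes a basic helix-loop-helix factor that drives growth and division, and its highest mean was at the middle dose. Probe 1 had log2 ratios of -3.72, -3.85, -3.68, -3.70 and -3.02 in control. The middle dose gave -1.84, -2.66, -2.30, -3.33 and -3.59, so that 3 arrays lay above every control and 2 among them. The highest dose gave -3.46, -3.58, -3.69, -3.74 and -2.57, which overlapped the controls apart from replicate 20.

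The difference of *Myc* from control at 50 mg/kg/day was 0.85 (SE 0.29) for probe 1, with adjusted p = 0.676 from limma (0.0075 before adjustment). It was 0.65 (SE 0.25, adjusted p = 0.693) for probe 2 and 0.25 (SE 0.21, adjusted p = 0.853) for probe 3 by the same limma model. The 3 probes gave 0.19, -0.01 and -0.03 at 75 mg/kg/day, with adjusted p of 0.851 or more from limma. The step from 50 to 75 mg/kg/day was -0.67 for probe 1 and -0.66 for probe 2, each with adjusted p = 0.712 from limma, so no order of the doses was shown. Over all members, 3 probes were higher at 50 than at 25 mg/kg/day at an unadjusted p under 0.05 by limma and 0 lower, against 4.6% and 3.69% of all probes. They were *Ier2* probe 1 and probes 1 and 2 of *Myc*. From 50 to 75 mg/kg/day 1 (*Jun*) was higher and 2 (both *Myc*) were lower, against 3.31% and 3.6%. Probes of 1 gene on the same arrays are not separate results.

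*Ier2*, *Ier3* and *Dusp1* complete the set. *Ier2* (chr8:84661331-84662852) encodes a nuclear early response protein, and its probe 1 had log2 ratios of -2.21, -1.67, -1.60, -2.16 and -2.24 in control against -1.52, -1.19, -1.48, -1.44 and -2.03 at 50 mg/kg/day, where 4 arrays lay above every control. The difference there was 0.45 (SE 0.23) with adjusted p = 0.754 from limma and an exact permutation p of 0.0476. It was -0.13 at 25 and 0.25 at 75 mg/kg/day. Probe 2, which is dimmer and was not well above background on every array, gave -0.07, -0.12 and 0.06.

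*Ier3* (chr17:35821713-35822911) encodes an early response protein tied to cell survival. Its means were -3.25 ± 0.28, -3.43 ± 0.09, -3.33 ± 0.17 and -3.35 ± 0.20 (SD, n = 5), with differences between -0.18 and -0.09 and adjusted p of 0.73 or more from limma, and at 25 mg/kg/day 0.04 under median centring, of the opposite sign. *Dusp1* (chr17:26505591-26508472) encodes a phosphatase that switches off MAP kinases and so closes the loop. At 75 mg/kg/day its log2 ratios were -2.58, -1.88, -1.64, -0.03 and -1.70, where replicate 16 lay below and replicate 19 far above all controls, which spanned -2.19 to -1.46. The difference was 0.33, with a 95% interval from -0.33 to 0.99 and adjusted p = 0.733 from limma, and without replicate 19 it was -0.05.

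Slides 1 to 3 each carried 1 array of every group, which allows differences within a slide. Slides 4 (replicates 6 and 20) and 5 (replicates 7 and 19) carried arrays of 25 and 75 mg/kg/day and no control. Replicates 7 and 20 were the highest of their groups for *Egr1* and *Junb*. The main model had no term for slide, so it compared these arrays with controls of other slides. *Egr1* at 75 mg/kg/day was above the control of its slide by 1.94, 0.93 and 1.80 on slides 1, 2 and 3. *Junb* probe 1 was above it by 0.82, 0.85 and 0.83, the narrowest range of these 3 genes, and *Fos* by 0.61, 0.13 and 0.71. At 50 mg/kg/day slide 6 adds a comparison of 2 arrays with 2 controls, and *Egr1* was higher by 0.79, 0.06, 1.58 and 1.39 on slides 1, 2, 3 and 6. *Myc* probe 1 differed by 0.11 and -0.30 on slides 1 and 2 but by 1.89 and 1.28 on slides 3 and 6, so its difference at 50 mg/kg/day rested on 2 of the 4 slides. At 25 mg/kg/day *Egr1* differed by 0.33, -0.15 and 0.08 on slides 1, 2 and 3, and *Junb* probe 1 by 1.11, -0.01 and 0.14. Position on the slide goes with dose here too.

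**Figure D3:**
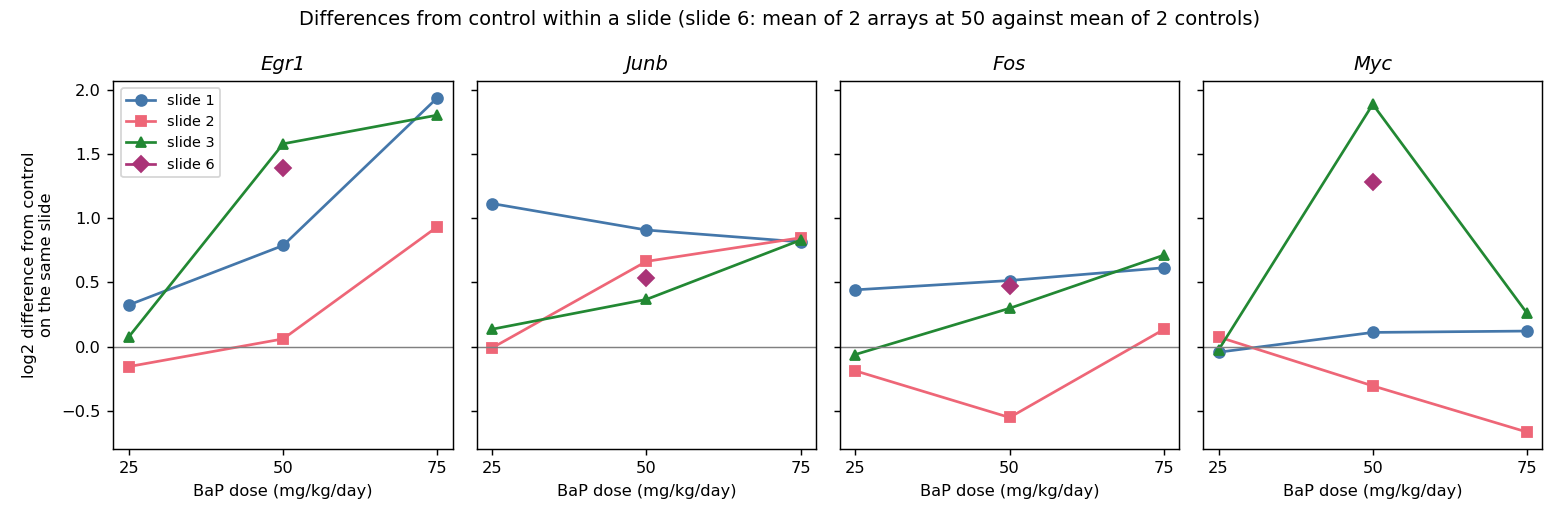
Difference from the control array of the same slide on the log2 scale (vertical axis) by BaP dose in mg/kg/day (horizontal axis) for *Egr1*, *Junb* probe 1, *Fos* and *Myc* probe 1; each line joins the arrays of 1 slide, and the diamond is slide 6, the mean of 2 arrays at 50 mg/kg/day less the mean of 2 controls. *Egr1* differs by 0.93 to 1.94 at 75 mg/kg/day, and *Myc* is high at 50 mg/kg/day on slides 3 and 6 alone.

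The members differed in how much animals of 1 group varied. The SD within groups was 0.73 for *Egr1*, 0.55 for *Dusp1*, 0.50 for *Myc*, 0.48 for *Junb* and 0.40 for *Ier2*, against a median of 0.22 over all present probes. It was 0.12 for *Atf3*, 0.19 for *Ier3*, 0.23 for *Jun*, and 0.25 for both *Fos* and *Fosb*. Taken alone, slides accounted for 71.8% of the variance of *Fosb* and 53.5% of that of *Dusp1*, and dose groups for 10.5% and 7.19%. For *Egr1* the shares were 25.9% between slides and 45.2% between dose groups. Each share came from a separate fit, and not every slide held every group, so the shares overlap. With 6 slides among 20 arrays a sizeable share arises by chance, larger for slides than for the 4 groups. Some arrays were the highest of their group for several genes, and this was not tested. Replicate 7 of 25 mg/kg/day was so for 6 of 10 genes (*Egr1*, *Fos*, *Jun*, *Junb*, *Atf3* and *Ier2*), replicate 12 of 50 mg/kg/day for 5 (*Egr1*, *Fos*, *Junb*, *Atf3* and *Ier2*), replicate 20 of 75 mg/kg/day for 4 (*Egr1*, *Junb*, *Ier2* and *Myc*) and replicate 16 of that dose for 4 (*Fos*, *Fosb*, *Atf3* and *Ier3*). Replicates 7, 20 and 16 were also the lowest of their group for 1 (*Ier3*), 2 (*Fosb* and *Ier3*) and 2 genes (*Jun* and *Dusp1*).

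With group means removed, all 45 pairs of members were correlated over the 20 arrays, by permutation within groups (100000 relabellings). The Pearson coefficient was above 0 in 28 pairs and had a median of 0.12. It was highest for *Egr1* and *Junb*, with r = 0.69 (permutation p = 0.00144, adjusted p = 0.0648) and Spearman rho = 0.57 (permutation p = 0.0115, adjusted p = 0.129). Without the 2 arrays farthest from the median of *Egr1* r was 0.58, and with slide means removed as well it was 0.70. *Egr1* and *Fos* had r = 0.64 (permutation p = 0.00883, adjusted p = 0.0795), rho = 0.54 (permutation p = 0.0264, adjusted p = 0.132), r = 0.66 without the 2 arrays and 0.61 with slide means removed.

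*Atf3* and *Ier3* had r = 0.64 (permutation p = 0.0138, adjusted p = 0.104), rho = 0.61 (permutation p = 0.0222, adjusted p = 0.131), r = 0.49 without 2 arrays and 0.77 with slide means removed. *Junb* and *Ier2* had r = 0.67 (permutation p = 0.00625, adjusted p = 0.0795), rho = 0.57 (permutation p = 0.0206, adjusted p = 0.131), r = 0.48 without 2 arrays and 0.46 with slide means removed. *Jun* and *Atf3* had r = 0.57 (permutation p = 0.00859, adjusted p = 0.0795), rho = 0.68 (permutation p = 0.00431, adjusted p = 0.097), r = 0.51 without 2 arrays and 0.67 with slide means removed. For *Fosb* and *Ier3* r was 0.58 (permutation p = 0.00669, adjusted p = 0.0795) and rho was 0.61 (permutation p = 0.00355, adjusted p = 0.097). Their r was 0.65 without 2 arrays and 0.51 with slide means removed. No pair passed an adjusted p of 0.05 in 45 comparisons by either coefficient, while 6 pairs did by r with slide means removed and 14 with median centring in place of loess. The relabellings kept to groups but not to slides, so with slide means removed their p-values can be too small. The 6 pairs are therefore not a firm result. *Egr1* and *Dusp1*, among the 6, went in opposite directions, with r = -0.43 (permutation p = 0.139, adjusted p = 0.391), rho = -0.44 (permutation p = 0.0895, adjusted p = 0.252), r = -0.45 without 2 arrays and -0.83 with slide means removed, the value farthest from 0 of the 45 pairs under that setting. The members share arrays and a reference, so such coefficients also hold what is common to an array.

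**Figure D4:**
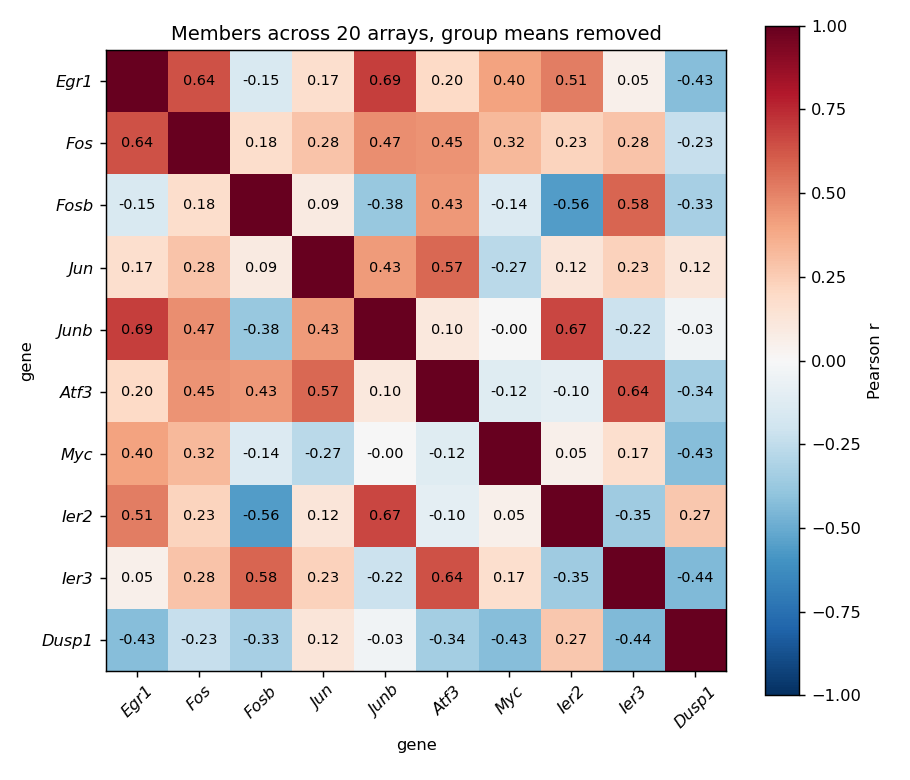
Pearson r between each pair of the 10 genes (rows and columns) over 20 arrays with group means removed; the color scale runs from -1 (blue) to 1 (red). *Egr1* pairs most closely with *Junb* (0.69) and *Fos* (0.64), and the lowest value is that of *Fosb* and *Ier2* (-0.56).

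Outside the members, the 3 genes whose pattern was most like that of *Egr1* over the 20 arrays with group means removed were *Miga1* (r = 0.77), *Sun2* (r = 0.75) and *Clcn2* (r = 0.72), of 12976 genes. For *Fos* they were *Foxc1* (r = 0.88), *Bend5* (r = 0.87) and *Arhgap11a* (r = 0.86), and for *Jun* *Procr* (r = 0.88), *Rgs3* (r = 0.87) and *Stac3* (r = 0.87). These are the ends of long rankings and were not tested.

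Of 65 other early response genes listed, 58 were present, and limma called 0 of them at any dose. At an unadjusted p under 0.05, 2 were higher and 2 lower at 25, 6 higher and 2 lower at 50, and 9 higher and 1 lower at 75 mg/kg/day by limma, where the shares of all probes were 4.18% and 3.62%, 3.75% and 2.94%, and 6.52% and 4.69%. Their median difference was -0.06, 0.06 and 0.06. Among 18 transcription factors *Klf4* had a difference of 0.76 (SE 0.25, adjusted p = 0.266) and *Mafk* of 0.40 (SE 0.14, adjusted p = 0.295), while *Fosl1*, another AP-1 partner of the Jun proteins, had -0.54 (SE 0.18, adjusted p = 0.283), all from limma. Among 23 genes of signal feedback and RNA decay *Btg2*, a growth-inhibiting p53 target, had 0.55 (SE 0.15, adjusted p = 0.191), *Zfp36*, which speeds the decay of cytokine mRNAs, 0.45 (SE 0.20, adjusted p = 0.407) and *Plk2* 0.39 (SE 0.15, adjusted p = 0.332).

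Among 17 secreted and other early genes *Tiparp*, a target of the aryl hydrocarbon receptor, had 0.54 (SE 0.13, adjusted p = 0.131) and *Ier5* 0.53 (SE 0.11, adjusted p = 0.0735) at 75 mg/kg/day. *Ier5*, an early response gene of the *Ier2* family, was the 1 gene of these lists with a called slope, at 0.20 (SE 0.04) log2 units per 25 mg/kg/day and adjusted p = 0.0283 from limma. Of 26 upstream kinases and transcription factors 25 were present and limma called 0, with 2 higher and 1 lower at an unadjusted p under 0.05 at 75 mg/kg/day, where the shares of all probes were 6.52% and 4.69%. Of these *Trp53* had 0.46 (SE 0.15, adjusted p = 0.266), *Elk3*, an ETS partner of serum response factor, 0.45 (SE 0.15, adjusted p = 0.283) and *Mrtfa*, a coactivator of that factor, -0.24 (SE 0.10, adjusted p = 0.366) at 75 mg/kg/day.

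Some markers of liver cell types also differed between doses. The mean log2 ratio of 8 endothelial markers was 2.15 to 2.84 in the controls, 2.74 to 3.27 at 25, 2.78 to 3.19 at 50 and 3.00 to 3.55 at 75 mg/kg/day, so the highest dose did not overlap the controls. Of these markers 5 were higher at an unadjusted p under 0.05 at 75 mg/kg/day by limma, and *Lyve1* was called, with a difference of 2.23 and adjusted p = 0.0189. The other endothelial markers had differences of 0.22 (*Pecam1*) to 0.78 (*Cdh5*) at that dose, so *Lyve1* weighed most in the mean. Of 8 Kupffer cell markers 2 were higher, and *Marco* was called, with 2.19 and adjusted p = 0.00148 from limma. The other Kupffer cell markers had differences of 0.03 (*Vsig4*) to 0.35 (*C1qb*), so *Marco* weighed most in their mean. That mean was 2.48 to 2.89 in the controls, 2.70 to 3.20 at 25, 2.76 to 3.54 at 50 and 2.70 to 3.36 at 75 mg/kg/day. For 8 stellate cell markers it was -1.33 to -0.32, -0.59 to -0.16, -0.40 to -0.12 and -0.53 to -0.13, and for 6 hepatocyte markers 4.65 to 5.93, 5.34 to 5.89, 5.41 to 5.84 and 5.43 to 5.81. The mean of 4 T cell markers was -0.393 to -0.274 in the controls and -0.622 to -0.400 at 75 mg/kg/day. The highest dose thus lay just below the controls for that list, in which *Cd2* was well above background on 3 arrays. At 75 mg/kg/day 3 of 8 stellate cell, 3 of 6 hepatocyte, 2 of 3 neutrophil, 1 of 6 bile duct and 1 of 4 lung epithelium markers were higher at an unadjusted p under 0.05 by limma, 0 of 3 B cell markers were, and 1 of 6 bile duct and 1 of 4 T cell markers were lower. At that threshold and dose 6.52% of all probes were higher and 4.69% lower. The endothelial, Kupffer and hepatocyte markers were well above background on all arrays, as were 7 of the 8 stellate cell markers. Their part in the values of *Egr1*, *Junb* and *Fos* was not tested, and in whole liver RNA more cells of a type and more RNA per cell cannot be told apart.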

How the data were processed

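Arrays of 20 livers, 5 in each of 4 groups taken from the sample labels, were used. The authors deposited median spot intensities of both channels from Agilent Feature Extraction software (10.1.1.1 in the file headers) without normalization, with the software's processed intensities and its other marks for spots well above background, saturated (0 spots) or outlying. They also deposited log2 ratios normalized by LOWESS within arrays. Here, median intensities were corrected by normexp (offset 50), normalized by loess within arrays with outlier spots left out, and averaged per probe (41174 probes). Presence required a liver signal above a limit, the mean plus 3 SDs of 153 negative control spots after trimming 5%, on 4 of 5 arrays of a group. Across probes, r with the deposited ratios was 0.994 to 0.996. Symbols came from RefSeq (23374 probes). Precision is limited by the number of arrays.

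limma 3.58.1 in R 4.3.3 took in all 20 arrays; p-values were adjusted by Benjamini-Hochberg for each contrast on its own, and the code was checked on simulated data. Python 3.11.15, scipy 1.17.1 and matplotlib 3.10.9 served for permutations and figures. All probes of the members are named, with those of the related lists that were called or, at 75 mg/kg/day, had up to 3 of the largest changes in each direction among unadjusted p under 0.05. The members and the lists were chosen with earlier results of these data known. The alternatives were background correction, normalization, filters, slide as a block, variance prior, adjustment and leaving out each array. The study's methods used MAANOVA and removed 1 sample; neither was done here. The lowest dose was taken as 25 mg/kg/day from the sample labels, though the series description prints a slightly lower value.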

Additional observations from a re-analysis of the deposited data

Results flagged for a closer look

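In 8 of 56 groups of 5 arrays (14 probes in 4 groups) 1 array lay so far from the rest that its gap to the nearest other array, as a share of the range, passed Dixon's critical value of 0.71; chance alone gives about 1 in 20 groups. The values are log2 ratios of liver over reference. For *Myc* probe 1 these were control replicate 5 at -3.02 (nearest array -3.68), replicate 8 of 25 mg/kg/day at -2.95 (nearest -3.74) and replicate 20 of 75 mg/kg/day at -2.57 (nearest -3.46), each above its group. Replicate 20 also stood apart for *Myc* probe 2, at -2.40 (nearest -3.14). *Fos* was high in replicate 16 of 75 mg/kg/day at -3.56 (nearest -3.95), and so was *Ier3*, at -3.01 (nearest -3.36). *Ier3* was low in replicate 7 of 25 mg/kg/day at -3.59 (nearest -3.41). *Junb* probe 1 was high in replicate 12 of 50 mg/kg/day at -0.81 (nearest -1.47).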

How the results depend on the processing

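The count of member probes called by limma, 0 at each dose and for the slope, became 1 with the scanner software's processed signals at 75 mg/kg/day and for the slope (*Fos* in both), 1 for the slope with the liver channel alone (*Fos*), 1 for the slope with slide as a fixed block and 1 as a random block (*Egr1* in both), and 1 at 75 mg/kg/day and for the slope on slides 1 to 3 alone (*Egr1* in both), a choice made after seeing the data. It was 0 to 0 when each array was left out in turn. The difference of *Atf3* at 25 mg/kg/day turned to 0.0027 with median centring, under which the median of all probes was 0.11. The cause was not tested. Pairs of members past an adjusted p of 0.05 numbered 6 with slide means removed, 14 with median centring and 0 without the 2 farthest arrays. The relabellings behind the 6 did not keep to slides, which can make p too small. Over alternatives the difference at 75 mg/kg/day was 1.26 to 1.85 for *Egr1*, 0.24 to 1.55 for *Fos* and 0.60 to 1.04 for *Junb* probe 1.

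Over all present probes limma called 36 higher and 1 lower at 75 mg/kg/day, 42 rising and 1 falling slopes, and 0 at the lower doses. At 75 mg/kg/day the count was 58 with processed signals, 16 with median centring, 58 and 62 with slide as a fixed and a random block, 5 with control and 1 dose only, and 81 (50 higher, 31 lower) on slides 1 to 3. For the slope it was 8 with median centring, 70 with the liver channel alone, and 95 and 109 with the blocks. At 50 mg/kg/day it was 4 with processed signals, 3 and 6 with the blocks, 4 with adjustment over the 3 contrasts together and 1 on slides 1 to 3. Leaving out each array gave 25 (without replicate 20 of 75 mg/kg/day) to 72 (without replicate 19) at 75 mg/kg/day, 28 (without replicate 17) to 59 (without replicate 19) for the slope, 0 to 1 at 50 and 0 to 2 at 25 mg/kg/day.

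The groups share no replicate numbers, so arrays were not paired by number; they were linked by slide, as the block above. Signal over background limits *Fos* and *Ier2* probe 2 most.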
